A study of Rattus norvegicus with 82 samples.

Results

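The older sham-operated rats of a study of pressure overload offered a comparison of the right ventricle (RV) with the left ventricle (LV) within the same heart, in animals without a constricting clip. Of the 82 cardiomyocyte RNA libraries, the 18 labelled Sham-F were taken, 9 from the RV and 9 from the LV, and they were paired by the animal number in the labels. The animals, 4 males and 5 females, were first-generation offspring of Wistar Kyoto mothers and Lewis fathers, with an age of 31 weeks and a treatment time of 26 weeks by the labels. The labelled ages conflict with the age at surgery in the labels' protocol and with the ages in the study's methods, so that ages are given here as labelled only. By the study's methods, hearts were digested with collagenase on a perfusion apparatus, the ventricles were separated, and cardiomyocytes were collected by low-speed centrifugation, so that a library describes a pool of cells from 1 ventricle that is enriched for cardiomyocytes. For comparison, 2 further groups were used with both ventricles of each animal. Of these, 7 animals were younger sham-operated rats (Sham-H, 11 weeks old and 7 weeks after surgery by the labels). The other 7 were rats with a clip around the aorta (AOB-F) of the same labelled age and treatment time as Sham-F. By the study, the AOB-F hearts were at the stage of decompensated left heart failure. All animals were hybrids of the same cross. Total RNA was depleted of ribosomal RNA and sequenced, and the authors deposited raw counts per gene.

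The ventricles form from different progenitor fields of the embryo and work against different loads after birth, the RV against the low resistance of the lung and the LV against systemic pressure. Chamber identity rests on transcription factors of the T-box, Iroquois, Hand and Hey families together with the core factors GATA4, NKX2-5 and MEF2. Natriuretic peptides, which cardiomyocytes secrete under stretch, fall in the ventricles after birth and return under load. The adult cardiomyocyte depends on fatty acid oxidation for ATP, and it spends much of this on myosin and on the calcium pump of the sarcoplasmic reticulum.

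The LV libraries held 10634674 to 17559576 counts (median 13877502) and the RV libraries 10618946 to 14421260 (median 11598420). Ventricular cardiomyocyte markers dominated every library, the 10 genes together holding 79450 to 110500 CPM (counts scaled to library size) in the LV and 101400 to 130200 in the RV, whereas lymphocyte and neutrophil marker lists stayed below 2 CPM. The first principal component, which held 71.2% of the variance, separated all LV from all RV libraries. The LV libraries of Sham-F also stood apart from those of the younger animals. Across 11954 genes the median absolute log2 difference between the Sham-F and Sham-H group means was 0.441 in the LV and 0.0994 in the RV, compared with 0.7 between LV and RV of Sham-F and 0.265 between LV and RV of Sham-H. In addition, log2 levels in the Sham-F LV libraries correlated negatively across genes with gene length (Spearman's rho per library -0.206 to -0.0418, relative to the mean of all libraries), whereas the RV libraries ranged from -0.0483 to 0.119. This trend was not particular to Sham-F, as the LV libraries of AOB-F ranged from -0.12 to 0.00125 (median -0.0911, beside -0.15 in the Sham-F LV). It was not shared by the younger sham animals, whose LV libraries ranged from -0.177 to 0.263 with a positive median (0.105). The part of these library properties in the differences given hereafter was not tested, beyond the fit with a correction for gene length.

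To define the chamber difference, RV and LV counts of each animal were compared with edgeR's quasi-likelihood test with the animal as a block. Fold changes are given on the log2 scale as RV minus LV with their standard errors (SE), adjusted p-values are from this test over all 11049 genes tested, and a gene was called at an adjusted p under 0.05, an absolute log2 fold change above 1 and a mean above 50 normalised counts in either ventricle. Normalised counts are raw counts scaled to a common effective library size. An adjusted p under 0.05 was reached by 8734 genes (79%), 4295 higher in the RV (38.9%) and 4439 lower (40.2%). Of these, 3320 genes (30%) were called, 1863 higher in the RV (16.9%) and 1457 lower (13.2%). The direction was shared by all 9 animals in 3259 of the called genes (in 62.4% of all genes tested), and the 9 LV libraries did not overlap the 9 RV libraries in 2925 called genes (in 44.9% of all genes tested). Absolute log2 fold changes of at least 2 were less evenly divided, with 166 genes higher and 360 lower in the RV. The median log2 fold change over all genes was -0.03 with the normalisation used, and -0.12 when libraries were scaled by their total counts alone. Counts of list members higher or lower in the RV are given hereafter at an adjusted p under 0.05. Their background is the 38.9% higher and 40.2% lower of all genes tested.

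**Figure D1:**
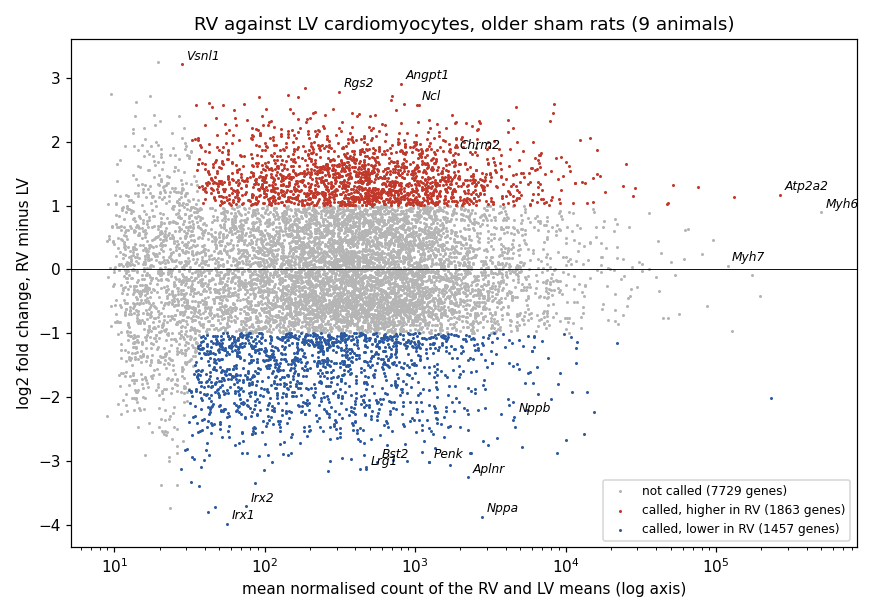
Each point is 1 of the 11049 genes tested in the 9 older sham rats, with the mean of the RV and LV mean normalised counts on the x axis (log scale) and the log2 fold change RV minus LV on the y axis. Red points are the 1863 genes called higher in the RV, blue points the 1457 called lower, and *Irx1*, *Irx2* and *Nppa* lie among the lowest.

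Among transcription factors of chamber identity, the largest differences were in the Iroquois family, homeobox factors that pattern the ventricles and their repolarisation. *Irx1* had 93.1 to 122 (median 103) normalised counts in the LV libraries and 0 to 9.89 (median 7.24) in the RV libraries. Every LV library was far above every RV library, and 1 RV library had no count for this gene. The log2 fold change was -3.99 (SE 0.26, adjusted p = 1.88e-11). *Irx2* had 108 to 189 (median 129) in the LV and 1.95 to 21.1 (median 7.42) in the RV, again without overlap, with a log2 fold change of -3.71 (SE 0.26, adjusted p = 4.69e-11). The other members did not share this pattern. *Irx3*, a factor of the conduction system, had 341 to 614 (median 493) normalised counts in the LV and 224 to 517 (median 424) in the RV, with overlapping ranges, and a log2 fold change of -0.28 (SE 0.12, adjusted p = 0.0331), a call that was lost without the block (adjusted p = 0.101) and when replicate 1, 2, 3, 5, 6 or 7 was left out, with log2 fold changes of -0.37 to -0.19 over the animals left out. *Irx4*, a ventricular factor, with a log2 fold change of 0.14 (SE 0.11, adjusted p = 0.238), and *Irx5*, at -0.10 (SE 0.10, adjusted p = 0.339), did not pass. *Irx4* passed without replicate 2 (0.25, adjusted p = 0.0224) and in females alone (0.27, adjusted p = 0.0171). *Irx6* had 1 count in all 18 libraries and was not tested.

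**Figure D2:**
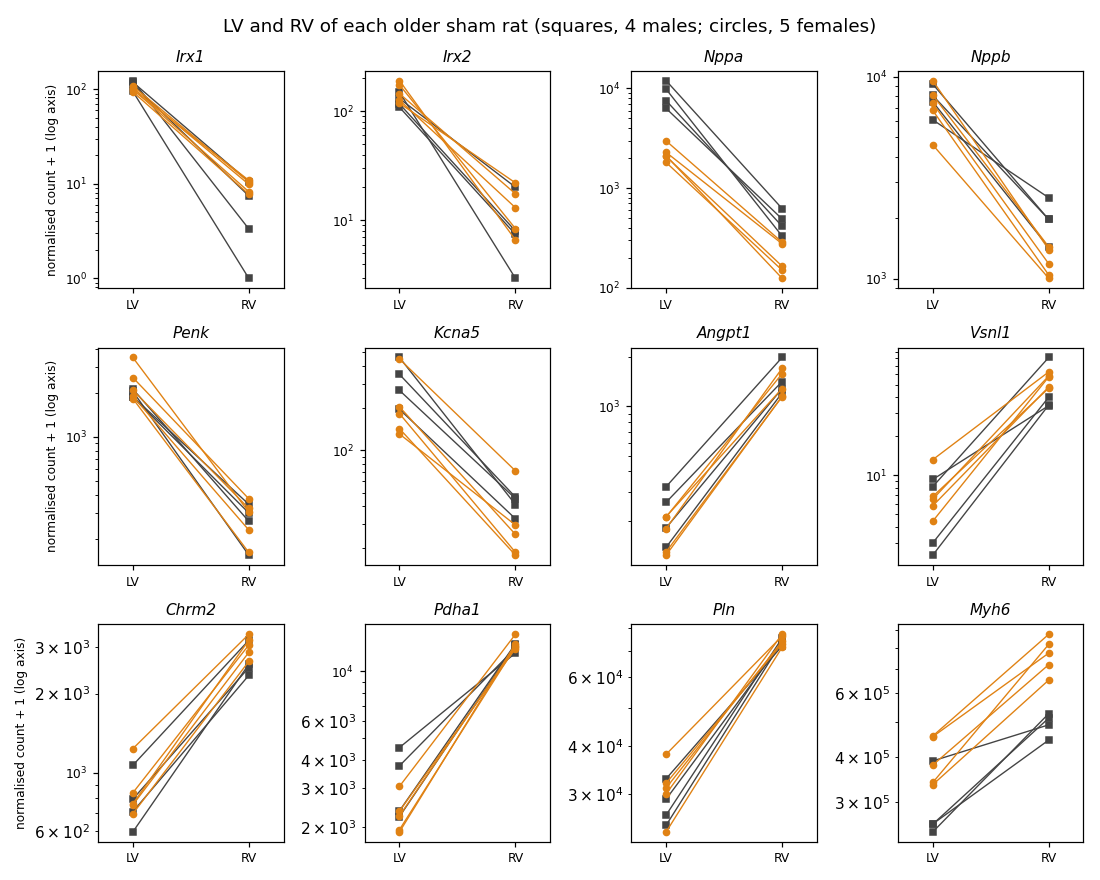
Normalised counts plus 1 (y axis, log scale) of 12 genes in the LV and RV of each older sham rat, 1 line per animal, with squares for the 4 males and circles for the 5 females. All 9 lines fall from LV to RV for *Irx1*, *Irx2*, *Nppa*, *Nppb*, *Penk* and *Kcna5* and rise for the other 6 genes, and the *Nppa* lines of the males start above those of the females.

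Of the 28 transcription factors tested on the chamber list, 9 were higher and 16 lower in the RV. *Tbx2* and *Tbx3*, T-box repressors that keep working myocardium genes off in the conduction system, were both lower. *Tbx2* had 176 to 499 (median 319.6) normalised counts in the LV and 28.1 to 102 (median 74.1) in the RV and *Tbx3* 415 to 697 (median 478) and 84.5 to 209 (median 138), both without overlap, with log2 fold changes of -2.20 (SE 0.11) and -1.87 (SE 0.12). *Tbx5*, a left-sided activator in the embryo, had a log2 fold change of 0.19 (SE 0.11, adjusted p = 0.129) and did not pass, but it passed without replicate 2 (0.27, adjusted p = 0.0253) and in females alone (0.31, adjusted p = 0.0215). *Tbx20*, a factor of working myocardium, was higher in the RV by a small amount (log2 fold change 0.32, SE 0.08, adjusted p = 0.00176), a call that was lost without the block (adjusted p = 0.0557). Of the Hey repressors downstream of Notch, *Hey1* was lower (-1.72) and *Hey2* higher, at 90.8 to 174 (median 129) in the LV and 318 to 466 (median 339) in the RV (log2 fold change 1.48, SE 0.14). *Mef2a*, a MADS-box activator of muscle genes, was also higher, with 808 to 1311 (median 936) normalised counts in the LV, 2566 to 3444 (median 2996) in the RV and a log2 fold change of 1.65 (SE 0.09). *Hey2* and *Mef2a* were chosen for display after their values were seen. Smaller differences were found in *Nkx2-5*, lower in the RV with a log2 fold change of -0.85 (SE 0.11) without overlap between 2189 to 5043 (median 2969) in the LV and 1386 to 2066 (median 1692) in the RV, and in *Gata4* (log2 fold change -0.45, SE 0.09) and *Hand2* (log2 fold change -0.46, SE 0.10), all below the threshold for a call. With the correction for gene length *Hand2* was at -0.17 and no longer passed (adjusted p = 0.185). *Hand1*, a factor of the left ventricular field, had 31 counts in the LV and 17 in the RV and was not tested.

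The natriuretic peptide genes were among the strongest chamber differences. *Nppa*, which encodes atrial natriuretic peptide, had 1805 to 11988 (median 2974) normalised counts in the LV and 123 to 621 (median 285) in the RV. All 9 LV libraries were above all RV libraries, with a log2 fold change of -3.88 (SE 0.15, adjusted p = 2.27e-14). *Nppb*, which encodes B-type natriuretic peptide, had 4594 to 9553 (median 7503) in the LV and 1004 to 2515 (median 1427) in the RV, likewise without overlap, and a log2 fold change of -2.31 (SE 0.13, adjusted p = 1.79e-12). On the list of 8 tested genes for peptides, processing and receptors, 1 was higher and 4 were lower in the RV. The exception was *Corin*, the membrane protease that cleaves the atrial propeptide, with 3149 to 6669.7 (median 4298) in the LV, 7319 to 12337 (median 10176) in the RV and a log2 fold change of 1.10 (SE 0.09, adjusted p = 6e-10). *Npr1*, the guanylyl cyclase receptor of both peptides, was lower in the RV, with 1153 to 1926 (median 1608) normalised counts in the LV and 270.2 to 606 (median 409) in the RV (log2 fold change -1.98, SE 0.11, adjusted p = 1.89e-12).

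The genes for both peptides are neighbours on rat chromosome 5, and their 250 bases upstream of the annotated start (RefSeq, GRCr8, plus strand, not the build of the counts) are shown because both genes were lower in every RV. Capitals mark matches on either strand to GATAA (GATA site, in 23.2% of 27457 rat promoters of this length), AAGTG (NKX2-5 site, 40.6%) and GGAATG (TEAD site, 11.8%), motifs chosen after the values were seen.
Nppa, chr5:163711934-163712183: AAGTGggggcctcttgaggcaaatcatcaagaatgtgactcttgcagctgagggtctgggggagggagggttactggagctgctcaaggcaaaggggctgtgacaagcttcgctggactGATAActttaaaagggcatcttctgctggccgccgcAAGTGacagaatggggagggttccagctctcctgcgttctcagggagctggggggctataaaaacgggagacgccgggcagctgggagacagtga
Nppb, chr5:163699758-163700007: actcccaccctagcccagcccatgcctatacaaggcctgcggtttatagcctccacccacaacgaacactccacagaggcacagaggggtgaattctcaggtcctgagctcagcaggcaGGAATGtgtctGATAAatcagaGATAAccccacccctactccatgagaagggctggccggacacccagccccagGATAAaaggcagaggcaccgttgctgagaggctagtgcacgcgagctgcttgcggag
The *Nppa* window holds 1 GATA match and matches for NKX2-5 at -250 and -95 from the start, and the *Nppb* window 3 GATA matches and a TEAD match at -131. These are letter matches, and the factors' binding was not measured here.

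The levels of *Nppa* differed between the sexes in both ventricles, a comparison made after the values were seen. In the LV the 4 males had 6306 to 11990 normalised counts and the 5 females 1805 to 2974, without overlap (log2 difference 1.96, exact permutation test, two-sided p = 0.00794, the smallest this design can give, adjusted over 4 tests p = 0.0212). In the RV the males had 328.3 to 621.3 and the females 123 to 284.6, also without overlap (log2 difference 1.26, exact permutation p = 0.0159, adjusted p = 0.0212). *Nppb* also differed between the sexes in the RV, where the ranges overlapped slightly (1427 to 2515 in males and 1004 to 1437 in females, log2 difference 0.69, exact permutation p = 0.0159, adjusted p = 0.0212), and no difference was detected in the LV (6113 to 9181 and 4594 to 9553, log2 difference 0.11, exact permutation p = 0.675). The labelled conditions of the animals were otherwise the same.

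Several secreted factors and receptors had large chamber differences. *Penk*, which encodes the precursor of the enkephalin opioid peptides, had 1818 to 3472 (median 2037) normalised counts in the LV and 154 to 375 (median 299.98) in the RV, without overlap, and a log2 fold change of -3.02 (SE 0.13, adjusted p = 4.87e-14). *Aplnr*, the receptor of apelin, which is also abundant in endothelial cells, had 1959 to 5445 (median 4296) in the LV and 244 to 529.6 (median 420.3) in the RV (log2 fold change -3.26, SE 0.10, adjusted p = 6.74e-15). Besides *Aplnr*, the 15 lowest included *Lrg1* (-3.13), a secreted glycoprotein that modulates TGF-beta signalling, *Cnr2* (-3.34), a cannabinoid receptor, the synaptic adhesion gene *Lrfn3* (-3.80), *Sez6l2* (-3.34), the lens membrane gene *Lim2* (-3.39), *Chit1* (-3.09), a chitinase of macrophages, the transcription factors *Hlx* (-3.13) and *Tcf15* (-3.10), *Fam212a* (-3.73), *Eva1b* (-3.15) and the histone gene *Hist1h2bd* (-3.13), together with *Irx1*, *Irx2* and *Nppa*. Of these 15, only *Hist1h2bd* had overlapping libraries, beside a share of 44.9% without overlap over all genes tested. The 15 were chosen for the size and shared direction of their differences, which favours separate ranges. For *Irx1*, *Lrfn3*, *Cnr2*, *Lim2*, *Fam212a*, *Chit1* and *Hist1h2bd*, the RV mean was below 10 normalised counts, so that the size of the difference rests on few reads.

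At the other end, *Angpt1*, the ligand of the endothelial receptor TIE2, had 122 to 322 (median 179.8) normalised counts in the LV and 1143 to 1988 (median 1284) in the RV, with every RV library above every LV library and a log2 fold change of 2.91 (SE 0.10, adjusted p = 8.73e-15). *Vsnl1*, a neuronal calcium sensor, reached 33.5 to 80.2 (median 47.1) in the RV from 1.42 to 12.2 (median 5.53) in the LV (log2 fold change 3.21, SE 0.26, adjusted p = 4.67e-10). *Rgs2*, which limits signalling through Gq, had 38.3 to 113 (median 83.3) in the LV and 327 to 813 (median 514) in the RV (log2 fold change 2.78, SE 0.13), and *Epha3*, an ephrin receptor, 24.8 to 80.6 (median 36.7) and 254 to 413 (median 319.98) (log2 fold change 2.84, SE 0.14). The 15 highest also included *Pcdh11x* (2.73), a protocadherin, *Emc2* (2.72), a subunit of the membrane protein insertase of the endoplasmic reticulum, *Mrpl42* (2.70) of the mitochondrial ribosome, *Usp15* (2.59), a deubiquitinase, the nucleolar genes *Npm1* (2.65) and *Ncl* (2.58), *Rps6* (2.59) of the small ribosomal subunit, *Zfp667* (2.70), *Mum1l1* (2.58) and *Cep70* (2.58). In each of the 15 the RV and LV libraries did not overlap, beside 44.9% of all genes tested. These 15 were likewise chosen for the size and shared direction of their differences. *Npm1* and *Rps6* have many processed copies in the genome that can share reads, and their values are uncertain for that reason.

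*Chrm2*, the muscarinic M2 receptor through which the vagus slows the heart, was a further gene with a large difference at high counts, chosen after its value was seen. It had 593 to 1232 (median 759.6) normalised counts in the LV and 2345 to 3362 (median 2869) in the RV, without overlap, and a log2 fold change of 1.82 (SE 0.09, adjusted p = 3.04e-13). On the list of adrenergic and cAMP genes, 10 of 32 were higher and 11 lower in the RV, beside 38.9% and 40.2% of all genes tested. *Adrb1*, the main beta adrenoceptor of cardiomyocytes, had a log2 fold change of -0.09 and did not pass. *Adcy7*, an adenylyl cyclase, was lower (-1.56). *Akap6*, which anchors protein kinase A at the nuclear envelope, was higher, with 4052 to 6334 (median 5255) in the LV and 12595 to 17226 (median 13929.9) in the RV (log2 fold change 1.45, SE 0.09, adjusted p = 5.55e-12), as was the phosphodiesterase gene *Pde4b* (1.3).

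Sarcomere genes leaned towards the RV, with 18 of 32 higher and 8 lower at an adjusted p under 0.05 and a median log2 fold change of 0.44, beside -0.03 over all genes. *Myh6*, the fast myosin heavy chain, had 247516 to 456653 (median 339374) normalised counts in the LV and 444981 to 874121 (median 652603) in the RV. The ranges of the ventricles overlapped, yet the RV was above the LV in 9 of 9 animals, with a log2 fold change of 0.89 (SE 0.10, adjusted p = 3.55e-08). *Myh7*, the slow myosin heavy chain, had 62812 to 201891 (median 83289) in the LV and 64327 to 200239 (median 93050.3) in the RV, with a log2 fold change of 0.06 (SE 0.09, adjusted p = 0.534) whose sign turned under upper quartile and total count scaling, under the correction for gene length and in males alone. *Nebl*, which encodes the Z-disc protein nebulette, was the highest of the list, at 952 to 2039 (median 1375) in the LV and 5617 to 8492 (median 7004) in the RV (log2 fold change 2.34, SE 0.12, adjusted p = 4.65e-13). *Acta1*, skeletal actin and a marker of hypertrophy, was the lowest, with 6106 to 22047 (median 9587) normalised counts in the LV and 2198 to 8775 (median 4087) in the RV (log2 fold change -1.63, SE 0.14, adjusted p = 7.77e-10), with overlapping ranges but the same direction in all animals. *Myl3*, the ventricular essential light chain, differed by -0.96 (SE 0.12) without overlap between 127857 to 252810 (median 146219) in the LV and 75452 to 94194 (median 85278) in the RV. *Actc1*, cardiac actin, had a log2 fold change of -0.09 (SE 0.10, adjusted p = 0.382) and did not pass. *Myl7*, the atrial regulatory light chain, was higher in the RV by 1.64 (SE 0.16) at low counts (means of 146 in the RV and 46.6 in the LV).

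Of the fetal and hypertrophy-associated genes, 3 of 17 were higher and 9 lower in the RV. The study had chosen several genes of this list on libraries of the series, so that the list is not independent evidence of its direction. Besides *Nppa*, *Nppb*, *Penk* and *Acta1*, the lower genes included the matrix gene *Cilp* (-2.31) and *Gdf15* (-2.10), a stress-induced cytokine. *Xirp2*, an actin-binding gene of the intercalated disc, went the other way, with 1451 to 6024 (median 2026) normalised counts in the LV and 11320.2 to 17769.6 (median 12389) in the RV (log2 fold change 2.44, SE 0.17, adjusted p = 5.45e-11), as did *Ankrd1* (1.15), a stretch-responsive titin partner. *Tceal7* had a log2 fold change of -0.36 (SE 0.26, adjusted p = 0.201) and did not pass, and *Hs3st2* had too few counts to be tested, with 63 in the LV and 7 in the RV. The median of this list, -0.37, turned to 0.05 in females alone.

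Genes of calcium cycling were likewise higher in the RV more often than lower, in 14 against 7 of 25, with a median log2 fold change of 0.45. These counts are 56% and 28%, beside 38.9% and 40.2% of all genes tested. *Atp2a2*, the calcium pump SERCA2 of the sarcoplasmic reticulum, had 121992 to 227417 (median 172121) normalised counts in the LV and 315892 to 462775 (median 349811) in the RV (log2 fold change 1.17, SE 0.11, adjusted p = 7.08e-09). *Pln*, which encodes phospholamban, the inhibitor of the pump, had 24043 to 38015 (median 30106) and 71479 to 77218 (median 73945) (log2 fold change 1.32, SE 0.09, adjusted p = 2.74e-11). Pump and inhibitor were thus both higher, in 9 of 9 animals each and without overlap. *Ryr2*, the release channel, had 58168 to 101143 (median 88607) in the LV and 151704 to 209968 (median 185348) in the RV (log2 fold change 1.14, SE 0.09, adjusted p = 2.08e-10), and *Trdn*, which encodes triadin, its partner, 615 to 1262 (median 793) and 2766 to 3817 (median 3315) (log2 fold change 2.04, SE 0.11, adjusted p = 1.76e-12). The L-type channel subunits *Cacna2d1* (1.65) and *Cacnb2* (1.42) and the sodium-calcium exchanger *Slc8a1* (1.24) were also higher. Of the genes that were lower, *Orai1* (-1.10) and *Stim1* (-0.87) form the store-operated entry pathway, and *Cacna1g* (-1.0) is a T-type channel.

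At the intercalated disc, which couples cardiomyocytes mechanically and electrically, 10 of 14 genes were higher and 2 lower. *Gja1*, connexin 43, the main ventricular gap junction protein, had 5017 to 10145 (median 7805) normalised counts in the LV and 13409 to 26891 (median 20315) in the RV (log2 fold change 1.36, SE 0.10, adjusted p = 2.09e-10), without overlap. *Cdh2*, N-cadherin, differed by 1.29 (SE 0.10) and *Dsc2*, a desmosomal cadherin, by 1.43 (SE 0.09). *Gja5*, connexin 40 of the conduction system and endothelium, was lower (log2 fold change -1.03, SE 0.12).

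Repolarising and sodium channel genes were evenly divided, with 9 of 24 higher and 9 lower, and the median of 0.01 changed its sign under total count and upper quartile scaling, under the correction for gene length, in males alone and without the block. Individual potassium channels differed strongly. *Kcna5*, the channel of the ultrarapid current, had 129.9 to 459 (median 204) normalised counts in the LV and 16.9 to 70.5 (median 31.5) in the RV, without overlap (log2 fold change -2.88, SE 0.14, adjusted p = 2.78e-13). *Kcna4* and *Kcnd2*, which carry the slow and fast transient outward currents, were higher in the RV, *Kcna4* at 56.9 to 146 (median 98.4) in the LV and 233 to 430.5 (median 259.5) in the RV (log2 fold change 1.52, SE 0.11) and *Kcnd2* at 364 to 673 (median 503) and 865 to 1179 (median 1056) (log2 fold change 1.05, SE 0.10). *Kcnip2*, the auxiliary subunit of the fast current, had a log2 fold change of 0.18 (SE 0.16, adjusted p = 0.315) and did not pass, and its sign turned under the correction for gene length and in females alone. *Kcnk2* (1.47), a mechanosensitive channel, and the subunits *Kcnj3* (1.44) and *Kcnj5* (0.97) of the acetylcholine-gated channel were higher, and *Kcnj8* (-1.52), abundant in mural cells, was lower.

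Energy metabolism separated by pathway. In the citric acid cycle 12 of 17 genes were higher in the RV and 0 lower, compared with 38.9% and 40.2% of all genes tested. *Sucla2*, a subunit of succinyl-CoA synthetase, had 907 to 2313 (median 1350.3) normalised counts in the LV and 7124 to 8874 (median 8011) in the RV (log2 fold change 2.54, SE 0.15, adjusted p = 4.35e-12). *Dld*, the dehydrogenase shared by the 2-oxo acid complexes, differed by 2.0 (SE 0.13) and *Idh3a* by 1.57 (SE 0.11), whereas *Idh2*, *Mdh2*, *Ogdh* and *Got1* did not pass, with log2 fold changes between 0.01 and 0.15. *Pdha1*, the catalytic subunit of pyruvate dehydrogenase, had 1904 to 4554 (median 2361) in the LV and 12083 to 14665 (median 12974) in the RV (log2 fold change 2.33, SE 0.13, adjusted p = 1.77e-12). *Pdk4*, the kinase that switches this enzyme off, was also higher, with 1803 to 4042 (median 2695) normalised counts in the LV and 6362 to 12502 (median 8937) in the RV (log2 fold change 1.59, SE 0.09, adjusted p = 1.34e-12).

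Genes of fatty acid uptake and oxidation were higher in 22 and lower in 8 of 40, with a median of 0.38. *Ppargc1a*, the coactivator of mitochondrial biogenesis, had 397 to 923 (median 711) normalised counts in the LV and 1735 to 2530.2 (median 2057) in the RV (log2 fold change 1.60, SE 0.10, adjusted p = 7.31e-12). *Acadm*, the medium-chain acyl-CoA dehydrogenase, had 2629.7 to 8164 (median 4055) and 12057 to 17167 (median 13915) (log2 fold change 1.77, SE 0.13, adjusted p = 6.45e-11), and *Etfdh*, which passes its electrons to ubiquinone, differed by 2.0 (SE 0.10). The fatty acid transporter *Cd36* (1.38) and the trifunctional protein subunits *Hadha* (1.35) and *Hadhb* (1.31) were also higher. The lower genes included *Esrra* (-0.83), a nuclear receptor of the same programme as *Ppargc1a*. Glycolysis and glucose uptake were mixed, with 15 of 34 higher and 11 lower, and their median of 0.06 changed its sign under total count and upper quartile scaling and in males alone.

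The respiratory chain divided within complexes. Of 32 complex I subunits, 7 were higher and 18 lower in the RV, with log2 fold changes from -0.95 (*Ndufa11*) to 2.02 (*Ndufs1*). *Ndufs1*, an iron-sulphur subunit of the core, had 3715 to 6990 (median 4663) normalised counts in the LV and 18172 to 22244 (median 20232) in the RV (log2 fold change 2.02, SE 0.11, adjusted p = 2.18e-12), and *Ndufs4* (1.83), *Ndufb3* (1.86) and *Ndufa5* (1.20) followed. In complexes II to IV, 9 of 27 were higher and 14 lower. *Uqcrc2*, a core subunit of complex III, had 4037 to 7248 (median 5215) in the LV and 21424 to 24764 (median 23172) in the RV (log2 fold change 2.06, SE 0.10, adjusted p = 5.43e-13), while its partner *Uqcrc1* was lower (-0.57). *Cox4i2*, the hypoxia-responsive isoform of a cytochrome c oxidase subunit, was the lowest, with 102 to 336 (median 249.99) normalised counts in the LV and 13.5 to 75.3 (median 41) in the RV (log2 fold change -2.41, SE 0.14, adjusted p = 2.64e-12), beside -0.86 for the main isoform *Cox4i1*. ATP synthase subunits were higher in 6 and lower in 9 of 17. With the correction for length the medians moved from -0.36 to -0.05 for complex I (8 higher, 12 lower), from -0.30 to 0.03 for complexes II to IV (10 higher, 12 lower) and from -0.22 to 0.08 for ATP synthase (8 higher, 5 lower), whereas the citric acid cycle stayed at 12 higher and 0 lower.

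Cytosolic ribosomal protein genes were lower in the RV in 49 of 73 and higher in 14, with a median of -0.51, and with the correction for length 36 were lower and 21 higher, with a median of -0.20. The lower genes were led by *Rps14* (-1.48) and *Rps15* (-1.42), and the higher ones by *Rps6*, *Rps3a* (1.89), *Rpl5* (1.68) and *Rpl7* (1.63). These families have many pseudogene copies and their single values are uncertain. Mitochondrial ribosomal protein genes were higher in 34 of 66 (51.5%) and lower in 19 (28.8%), beside 38.9% and 40.2% of all genes tested.

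RNA processing genes leaned to the RV. Of 41 spliceosome components and splicing regulators, 35 were higher in the RV and 2 were lower (*Ptbp1*, -1.41, and *Snrpa*, -0.60), with a median of 0.94. *Hnrnpa2b1*, an hnRNP protein of splicing and RNA transport, had 661 to 1464 (median 894) normalised counts in the LV and 3897 to 5533 (median 4255) in the RV (log2 fold change 2.29, SE 0.14, adjusted p = 5.02e-12). *Clk1*, a kinase of SR splicing factors, had 416 to 697 (median 552) and 1323 to 2126 (median 1752) (log2 fold change 1.67, SE 0.09, adjusted p = 1.57e-12), and *Clk4* differed by 1.68 (SE 0.11). *Rbm20*, the regulator of titin splicing, was higher by a smaller amount (0.43). *Hnrnpa1* (2.15) has many processed copies and is uncertain. Chromatin and transcription regulators were higher in 16 of 27 and lower in 6, led by the histone methyltransferases *Setd2* (1.86) and *Ash1l* (1.65). Proteasome genes were higher in 20 of 40 (50%) and lower in 13 (32.5%), beside 38.9% and 40.2% of all genes tested. Those that were lowest were the 3 catalytic subunits of the immunoproteasome, *Psmb9* (-2.26), *Psmb8* (-1.85) and *Psmb10* (-1.67), which interferon induces. *Psmb9* had 175 to 389 (median 317) normalised counts in the LV and 34.9 to 108 (median 63.5) in the RV, without overlap.

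Interferon-stimulated genes were lower in the RV in 19 of 27 and higher in 5, with a median of -1.07. *Bst2*, which encodes tetherin, a restriction factor of enveloped viruses, had 571 to 1397 (median 969) normalised counts in the LV and 83.3 to 153 (median 129) in the RV, without overlap (log2 fold change -3.02, SE 0.12, adjusted p = 2.03e-14). *Ifi27* had 1788 to 4834 (median 3339) in the LV and 452 to 686 (median 577) in the RV (log2 fold change -2.48, SE 0.12, adjusted p = 2.07e-13). *Oas1a* (-2.74), of the sensor family for double-stranded RNA, *Irf7* (-1.70), the factor that amplifies the response, and *Isg15* (-1.53) were also lower, whereas the higher members included *Ifit1* (0.81), *Ifit2* (1.10), *Ifit3* (0.86) and *Ddx58* (0.69). The higher and the lower members thus both included classical target genes. The interferon-stimulated response element, searched on both strands as a pair of GAAA repeats with any 2 bases between them, was present upstream of 11 of the 16 members with a promoter in the RefSeq table, compared with 3.29% of all promoters. Of these 11, 8 were lower in the RV and 1 was higher, and of the 5 members without a match all were lower. The windows of *Bst2* (minus strand, chromosome 16) and *Ifit3* (plus strand, chromosome 1) are shown because both hold the element and the genes differed in opposite directions.
Bst2, chr16:18254968-18255217: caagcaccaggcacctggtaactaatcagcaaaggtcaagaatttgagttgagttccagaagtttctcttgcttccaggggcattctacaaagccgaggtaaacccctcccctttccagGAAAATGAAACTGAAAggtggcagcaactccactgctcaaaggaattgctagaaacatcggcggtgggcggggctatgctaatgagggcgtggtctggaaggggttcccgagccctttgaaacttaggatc
Ifit3, chr1:241527076-241527325: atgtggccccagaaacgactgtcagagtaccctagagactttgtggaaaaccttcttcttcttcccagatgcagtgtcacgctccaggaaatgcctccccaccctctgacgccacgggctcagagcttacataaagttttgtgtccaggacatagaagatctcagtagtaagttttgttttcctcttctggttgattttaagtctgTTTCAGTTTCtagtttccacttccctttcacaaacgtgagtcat
In *Bst2* the capitals span a pair of overlapping matches at -131 and -125 from the start, and in *Ifit3* 1 match to the opposite strand at -44.

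Immediate early genes, which are transcribed within minutes of a stimulus and are also known to respond to tissue dissociation, were lower in the RV in 22 of 28 and higher in 1 (*Nr4a2*, 0.20). *Klf2*, a flow-responsive factor of endothelial cells, had 3787 to 13996 (median 9414) normalised counts in the LV and 1236 to 2811 (median 1853) in the RV (log2 fold change -2.21, SE 0.10, adjusted p = 2.36e-13). *Arc* (-2.13), *Jund* (-1.62) and *Ier2* (-1.52) were also lower, whereas *Fos* (-0.04) and *Egr1* (-0.18) did not pass. *Dusp1*, the phosphatase that ends MAP kinase signals, had 10994 to 27034 (median 16608) in the LV and 4721 to 8083 (median 5772) in the RV, without overlap (log2 fold change -1.47, SE 0.10, adjusted p = 6.98e-11). Of 18 members with a promoter in the table, 5 held the cAMP response element TGACGTCA (*Jund*, *Ier2*, *Dusp1*, *Maff* and *Btg2*), compared with 1.7% of all promoters, and these 5 were lower, as were 9 of the other 13. In the *Dusp1* window the element lies at -124.
Dusp1, chr10:17184603-17184852, plus strand: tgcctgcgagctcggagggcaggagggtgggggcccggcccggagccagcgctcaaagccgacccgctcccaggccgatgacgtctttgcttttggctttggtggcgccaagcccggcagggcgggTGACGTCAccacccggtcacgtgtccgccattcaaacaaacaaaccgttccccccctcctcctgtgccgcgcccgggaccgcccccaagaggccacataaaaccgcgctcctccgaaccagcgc
Genes of the integrated stress response, by which cells adapt translation to stress, were lower in 13 of 21 and higher in 3. *Ddit4* (-1.75) and *Trib3* (-1.69) led the lower genes with *Gdf15* and *Phgdh* (-2.01), and *Atf4*, the factor that drives the programme, had a log2 fold change of 0.01 and did not pass.

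Heat shock proteins were divided, with 15 of 30 higher (50%) and 13 lower (43.3%), beside 38.9% and 40.2% of all genes tested. The higher members included chaperones of the mitochondria and the endoplasmic reticulum. *Hspd1*, the mitochondrial HSP60, had 893 to 2361 (median 1297) normalised counts in the LV and 4586 to 6379 (median 5214) in the RV (log2 fold change 2.01, SE 0.15, adjusted p = 8.83e-11), and *Hsp90b1* (2.19), *Hspa9* (1.79) and *Hspa5* (1.36) were also higher. The inducible cytosolic genes *Hspa1b*, *Hspa1a* (-1.36) and *Dnajb1* (-1.33) and the small heat shock gene *Hspb1* (-0.87) were lower. *Hspa1b* had 179.7 to 1936 (median 442) in the LV and 59 to 162 (median 103) in the RV (log2 fold change -1.98, SE 0.26, adjusted p = 4.63e-07), and its highest LV library lay far above the others. The heat shock element, searched on both strands as GAA, TTC and GAA with any 2 bases between neighbours, was found upstream of 4 of 24 members with a promoter in the table (*Hspd1*, *Hspe1*, *Hspa8* and *Hsph1*), compared with 0.597% of all promoters, and these 4 were higher in the RV, beside 9 higher and 9 lower of the other 20. Members without a promoter in the table were not counted, among them *Hspa1b*, which was lower, and *Dnajb4* (1.91), which was higher. A link between the element and the direction was not tested. The *Hspd1* window holds a pair of overlapping matches at -242 and -237.
Hspd1, chr9:64084038-64084287, minus strand: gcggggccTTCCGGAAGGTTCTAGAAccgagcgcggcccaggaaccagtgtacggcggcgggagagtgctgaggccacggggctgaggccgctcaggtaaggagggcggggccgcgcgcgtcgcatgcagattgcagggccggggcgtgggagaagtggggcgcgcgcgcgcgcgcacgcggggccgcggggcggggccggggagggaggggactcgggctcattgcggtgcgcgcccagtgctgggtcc

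Genes of the extracellular matrix were lower in the RV almost throughout. Of 14 collagen genes 13 were lower and 1 was higher (*Col4a3*, 0.39), with a median of -1.61, and of 33 other matrix genes 26 were lower and 2 higher (*P4ha1*, 0.61, and *Vcan*, 0.35). *Col1a1*, a fibrillar collagen mainly of fibroblasts, had 1627 to 5636 (median 2431) normalised counts in the LV and 295 to 697 (median 493) in the RV, without overlap (log2 fold change -2.46, SE 0.12, adjusted p = 3.81e-13). *Col15a1*, of basement membranes, had 1999.8 to 5286 (median 3483) and 520.2 to 1115 (median 725) (log2 fold change -2.21, SE 0.08, adjusted p = 1.07e-14). *Fbln5* (-2.27), of elastic fibres, and the collagen cross-linking enzyme *Loxl1* (-2.22) were also lower, whereas *Dcn* (-0.05), *Lum* (0.01) and *Postn* (0.15), which fibroblasts express, did not pass.

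Markers of other cell types moved with these groups. The 8 endothelial markers summed to 1978 to 3614 CPM in the LV (median 3124) and 653.8 to 1111 in the RV (median 866), without overlap, and 6 of the 8 were lower and 1 was higher in the RV. *Tie1*, an endothelial receptor, had 4018 to 7784 (median 6304) normalised counts in the LV and 715 to 1174 (median 921) in the RV (log2 fold change -2.65, SE 0.09, adjusted p = 8.22e-15), and *Vwf*, von Willebrand factor, 7990.04 to 17650.5 (median 13103) and 2488 to 4423 (median 2886) (log2 fold change -2.04, SE 0.10, adjusted p = 2.06e-13). The members did not move together, since *Kdr* (-0.27) differed little, *Tek* (-0.24) did not pass and *Emcn* (0.93) was higher in the RV. Summed fibroblast markers had a median of 623 CPM in the LV and 243.5 in the RV, with 6 of 9 tested lower and 0 higher, macrophage markers 81.62 and 34.66, with 5 of 8 lower and 0 higher, adipocyte markers 166.8 and 33.49, of whose 4 genes only *Fabp4* had enough counts to be tested (means of 2198 normalised counts in the LV and 504 in the RV), and mural markers 1310 and 1080, with 5 of 8 lower and 2 higher. Atrial cardiomyocyte markers had medians of 275 and 56.9 CPM, and *Nppa* belongs to this list, while *Myl7* of the same list was higher in the RV. Lymphatic endothelial, Schwann cell, epicardial and mesothelial, and conduction cell lists had medians of 161.3, 17.4, 60.46 and 170.2 CPM in the LV and 178.4, 11.69, 22.84 and 138.9 in the RV. Red blood cell markers reached 263.6 CPM in 1 LV library, with *Hba1* at 0 in all libraries. Ventricular cardiomyocyte markers had medians of 100500 CPM in the LV and 115300 in the RV, with the RV above the LV in 9 of 9 animals. Of these 10 genes, 5 were higher, 3 were lower and 2 did not pass. *Myh6* alone held 1.991% to 3.76% of all counts in the LV and 3.497% to 6.236% in the RV. In replicate 6 it went from 2.773% to 5.028%, while the list sum went from 100500 to 115300 CPM. The rise of the sum thus does not describe the members as a whole. Fewer cells of a type and less RNA per cell cannot be told apart in such libraries, and the part of the other cell types in the lower matrix, interferon, immediate early and growth factor genes was not tested.

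**Figure D3:**
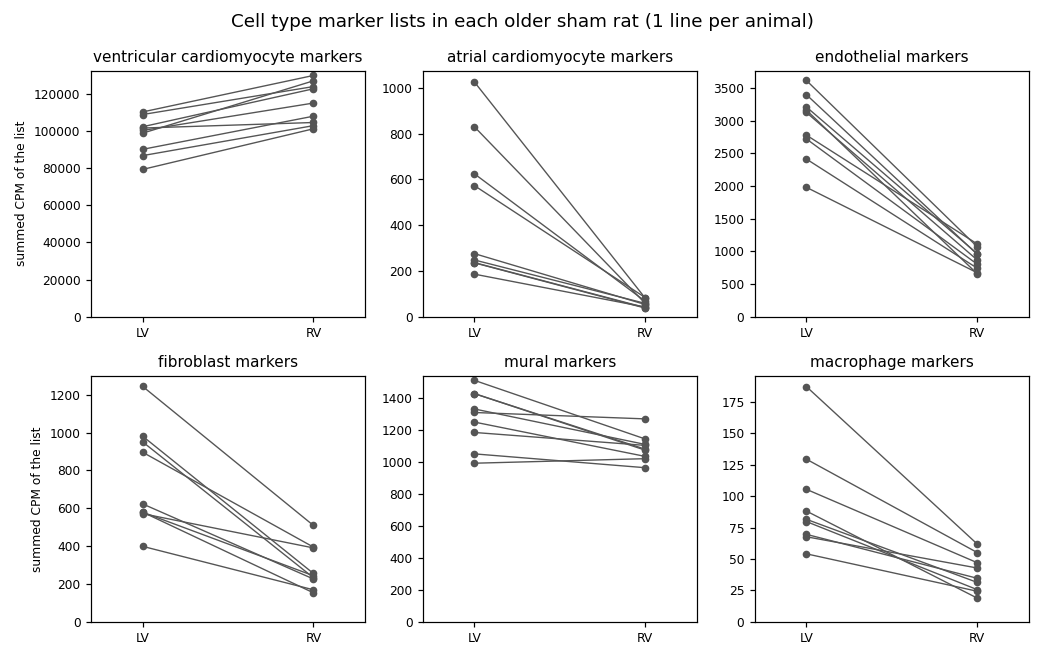
Summed CPM of 6 cell type marker lists (y axis, starting at 0) in the LV and RV of each of the 9 older sham rats, 1 line per animal. The endothelial list falls from a median of 3124 to 866 and the fibroblast list from 623 to 243.5 between LV and RV, while the ventricular cardiomyocyte list rises in all animals.

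TGF-beta and growth factor genes were lower in 20 of 39 (51.3%) and higher in 9 (23.1%), beside 40.2% and 38.9% of all genes tested. *Tgfb1*, the main fibrogenic ligand, had 309 to 885 (median 706) normalised counts in the LV and 84.4 to 165 (median 122) in the RV (log2 fold change -2.44, SE 0.11, adjusted p = 1.63e-13), and *Pdgfb* (-2.34), which endothelial cells release to recruit mural cells, was also lower. Apart from *Angpt1*, the higher genes included the FGF family members *Fgf13* (1.70) and *Fgf12* (1.55), which act inside the cell on sodium channels, and *Erbb4* (1.54), the neuregulin receptor of cardiomyocytes. On the renin-angiotensin, endothelin and calcineurin list, 11 of 22 were higher and 9 lower. *Nfatc4* (-2.27), *Ace* (-1.84) and *Ece1* (-1.59) were lower, and the calcineurin subunits *Ppp3r1* (1.10) and *Ppp3cb* (1.07) were higher. Of 28 antioxidant and NADPH oxidase genes 10 were higher and 14 lower, and their median of -0.17 turned under the correction for length and in males alone. *Cyba* (-2.93), a subunit of the phagocyte oxidase, and the secreted enzymes *Gpx3* (-2.57) and *Sod3* (-2.30) were the lowest, whereas *Sod1* (1.09), *Sod2* (1.09), *Cat* (1.0) and *Nfe2l2* (1.16), their shared activator, were higher.

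Cell cycle genes were lower in 15 of 26 and higher in 4, and the mitotic kinase genes *Aurkb* (-2.20, means of 24.5 in the LV and 5.27 in the RV) and *Bub1* (1.84, means of 14.9 and 49.4) stood at its opposite ends at low counts. Of the circadian clock, 9 of 15 did not pass, among them *Arntl* (0.07) and *Nr1d1* (-0.20), while *Clock* (1.61) and *Nr1d2* (1.15) were higher and *Per1* (-1.0) was lower. Muscle atrophy and autophagy genes were higher in 11 of 25 and lower in 8, led by the ubiquitin ligase genes *Fbxo30* (1.87) and *Ube3a* (1.65), and their median changed its sign with the scaling. Pumps and mineral transporters were higher in 5 of 16 and lower in 7, with *Atp1b1* (0.94) and *Atp1b2* (-1.09), both beta subunits of the sodium pump, in opposite directions. In the creatine kinase shuttle 6 of 15 were higher and 6 lower, with *Vdac3* (1.80) of the outer mitochondrial membrane highest, *Ckm* of the sarcomere at -0.76 and *Ckmt2* of the mitochondria at 0.09, which did not pass. The medians of these last 2 lists changed their sign when only females were used.

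**Figure D4:**
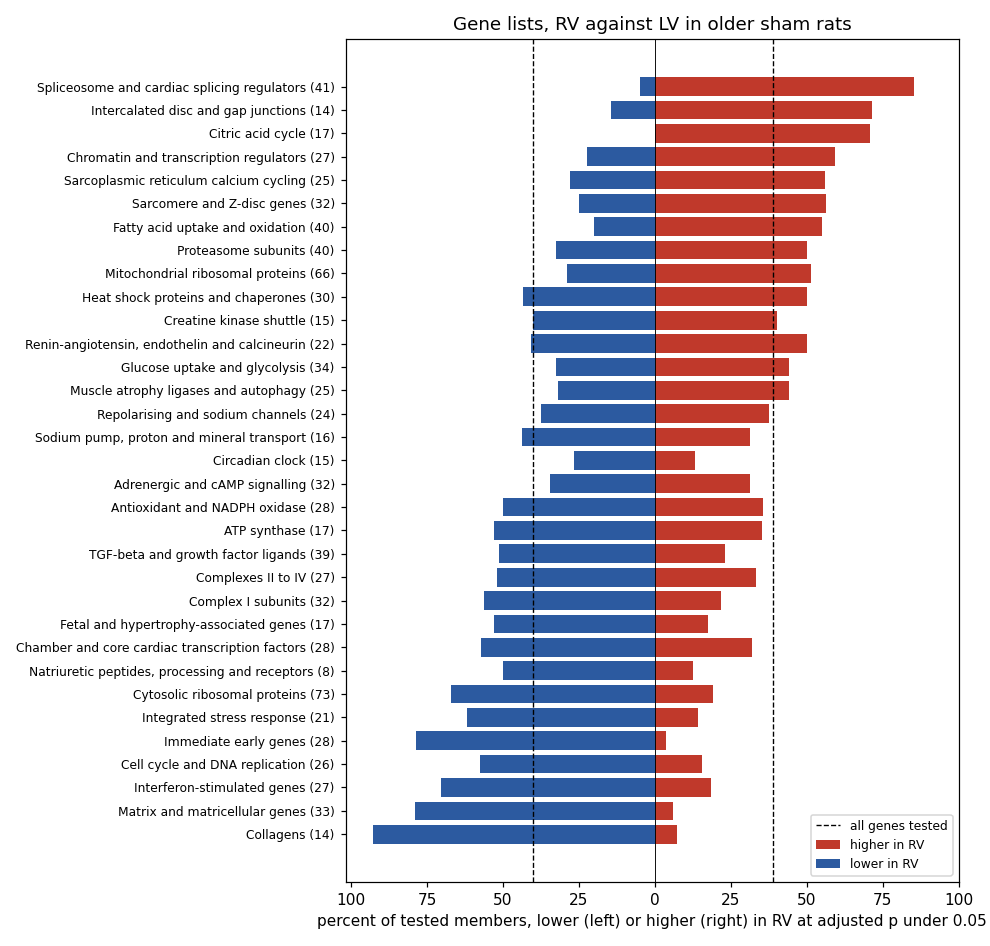
Share of tested members (x axis, percent) that were lower (blue, left) or higher (red, right) in the RV at an adjusted p under 0.05, for 33 gene lists with the number tested in parentheses, and dashed lines at the shares of all genes tested (40.2% and 38.9%). Splicing, intercalated disc and citric acid cycle genes extend furthest to the right and collagens, matrix and immediate early genes furthest to the left.

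Loci of microRNA hairpins were counted as genes in these libraries, and such counts describe fragments over the hairpin in total RNA rather than the mature molecule. Of 38 tested loci, 10 were higher and 9 lower in the RV, and 19 did not pass, beside 38.9% higher and 40.2% lower of all genes tested. The 4 called higher were *Mir1896* (2.52), *Mir568* (2.35), *Mir490* (1.65) and *Mir3064* (1.43), and the 3 called lower *Mir3567* (-2.57), *Mir207* (-2.17) and *Mir3074* (-1.20). Of the 38, 34 matched a RefSeq entry. The mature sequences of called loci that lie in a gene tested here are given with the seed (bases 2 to 8) in capitals, because the loci can be set beside their host genes (RefSeq, GRCr8).
rno-miR-490-5p: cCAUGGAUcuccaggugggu
rno-miR-490-3p: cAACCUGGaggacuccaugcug
rno-miR-568: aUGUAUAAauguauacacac
rno-miR-3064-3p: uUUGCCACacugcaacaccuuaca
rno-miR-207: cUUCUCCUggcucuccucccuuu
rno-miR-3074: gAUAUCAGcucaguaggcaccg
These 6 have different seeds. *Mir490* lies within *Chrm2*, and its locus had 8.54 to 23.3 (median 17.7) normalised counts in the LV and 28.3 to 84.5 (median 56.3) in the RV, in the direction of the host (1.82). *Mir568* (21.5 to 77.9 (median 63.3) in the LV, 226 to 386 (median 280.4) in the RV) lies within *Zbtb20* (1.15), and *Mir3064* within *Ddx5* (1.57). In contrast, *Mir207* overlaps *Dnaja1*, a chaperone gene that was higher in the RV (1.10), while the locus itself was lower, with 62.7 to 462 (median 146) normalised counts in the LV and 22.1 to 86 (median 31.5) in the RV. *Mir3074* overlaps the aminopeptidase gene *Npepo* (-0.46), which RefSeq names *Aopep*, on the strand opposite to *Mir23b* and *Mir27b* of the same gene. All overlaps were set by position without regard to strand, so that a locus may be antisense to the gene named with it. *Mir208b*, within *Myh7* (0.06), differed by 0.63 (SE 0.21, adjusted p = 0.0102). Overlapping genes can share reads, so that a locus and its host are not independent.

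To ask whether the chamber difference of these hearts was already present at the earlier stage, it was compared with that of the 7 Sham-H animals in 1 model with the animal as a block. The difference between the stages passed an adjusted p under 0.05 for 5775 of 11420 genes (50.6%), 2931 above 0 and 2844 below. The direction was mostly shared, as 5243 of the 5775 had the same sign in both stages, and 5237 of these were larger in Sham-F. All 303 genes called in Sham-H by the same criteria had the same sign in Sham-F, with a median absolute log2 fold change of 1.18 in Sham-H and 2.18 in Sham-F. Of the 3316 genes called in Sham-F that were tested in Sham-H, 99.5% had the same sign there, with medians of 1.44 and 0.578. As these genes were selected for their size in Sham-F, the larger median there is partly fixed by the selection. Over all 10847 genes tested in both, the fold changes of the stages correlated at 0.885 (Pearson). The change between the stages lay mainly in the LV. The median absolute log2 difference between older and younger animals was 0.447 in the LV and 0.0959 in the RV over all genes. The LV moved more in 84.9% of all 11420 genes and in 96.5% of the 5775, which were selected by a test on the same libraries. Age, time after surgery and the handling of each stage's animals cannot be told apart in this comparison.

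**Figure D5:**
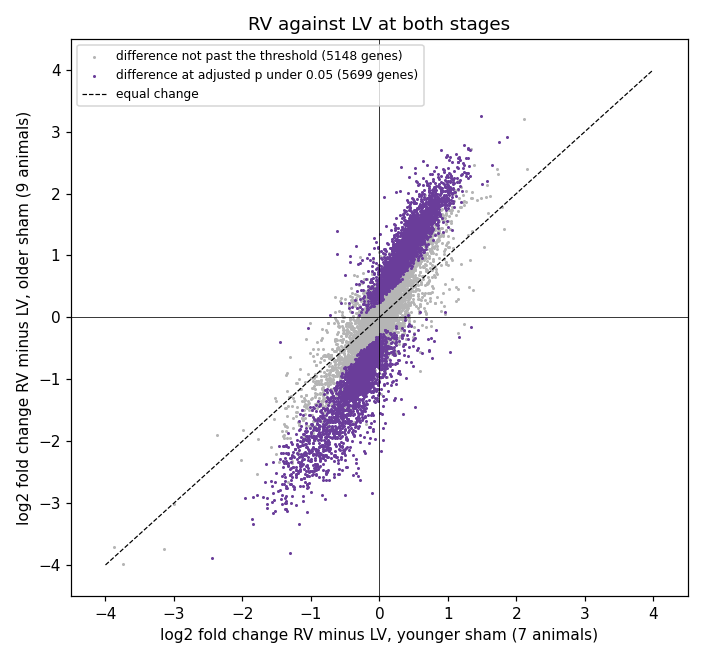
Log2 fold change RV minus LV in the 7 younger (x axis) and the 9 older sham rats (y axis) for genes tested in both, with purple points for genes whose difference between the stages passed an adjusted p under 0.05 and a dashed line where both are equal. Most purple points share their sign between the stages and lie further from 0 in the older animals.

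For 4 genes with large differences in favour of the LV, no difference between the stages was detected. For *Irx1* and *Irx2* the values rest on few RV reads, with Sham-F RV means of 6.69 and 10.7 normalised counts. *Irx1* (-3.74 in Sham-H, -3.99 in Sham-F, difference -0.24, SE 0.60, adjusted p = 0.761), *Irx2* (-3.87 and -3.71, difference 0.15, SE 0.42, adjusted p = 0.788), *Penk* (-3.00 and -3.02, difference -0.02, SE 0.27, adjusted p = 0.947) and *Nppb* (-2.03 and -2.31, difference -0.28, SE 0.21, adjusted p = 0.277) had an absolute log2 fold change above 2 at both stages. In contrast, *Nppa* went from -2.45 to -3.88 (difference -1.43, SE 0.29, adjusted p = 0.00114), with LV means of 1806 normalised counts in the younger and 5165 in the older animals beside RV means of 309.5 and 314, scaled over both stages. The older LV mean lies between the sexes, with 6306 to 11990 in males and 1805 to 2974 in females (scaled within Sham-F). The younger animals were not compared by sex. *Atp2a2* differed between the ventricles by 0.44 in Sham-H and 1.17 in Sham-F, and its mean fell from 282400 to 163000 in the LV beside 364900 and 362400 in the RV. *Pln* (0.42 and 1.32), *Gja1* (0.38 and 1.36), *Acadm* (0.72 and 1.77), *Angpt1* (1.86 and 2.91) and *Chrm2* (0.77 and 1.82) followed, each with lower LV counts in the older animals. In the other direction, *Col1a1* (-0.54 and -2.46), *Bst2* (-1.21 and -3.02), *Kcna5* (-1.12 and -2.88), *Klf2* (-0.86 and -2.21) and *Tbx2* (-0.96 and -2.20) had higher LV counts in the older animals. Adjusted p-values of these differences lay between 0.000193 (*Col1a1*) and 0.0074 (*Atp2a2*). Between the lists, the stage difference was above 0 in 12 of 17 citric acid cycle, 24 of 41 splicing and 20 of 40 fatty acid genes, compared with 25.7% of all genes, and below 0 in 12 of 14 collagen, 45 of 74 cytosolic ribosomal protein and 17 of 28 immediate early genes, compared with 24.9% of all genes. The trend with gene length also differed between the stages in the LV (median rho 0.105 in Sham-H, -0.15 in Sham-F). In the RV the medians were 0.0505 and 0.0811. Cytosolic ribosomal protein genes are short (median 697 bases). With the correction for gene length 5701 genes differed between the stages, but the counts by list were made without it. The part of the length trend in them was not tested. Among the genes with the largest differences below 0 were *Ssc5d* (-0.31 in Sham-H and -2.56 in Sham-F), a secreted scavenger receptor-like gene, *Kazald1* (-0.28 and -2.63) and *Hist2h2ab* (-0.11 and -2.84), and among those above 0 *Scrn3* (0.52 and 2.41), *Mrpl42* (0.89 and 2.70) and *Egfl6* (0.24 and 2.03).

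Within Sham-F, 53 of 11537 genes (0.459%) had a chamber difference that differed between the 4 males and 5 females at an adjusted p under 0.05, 38 above 0 (males minus females, 0.329%) and 15 below (0.13%). This count fell to 21 without replicate 8 or without replicate 9 and rose to 151 without replicate 2, it was 32 without replicate 3 or 5 and 29 without replicate 7, and it was 22 without the block. *Atcay* had a log2 fold change of 0.45 in males and -1.65 in females (difference 2.12, SE 0.29, adjusted p = 0.00134), and *Gareml* of 1.52 and -0.48 (difference 2.01, SE 0.29, adjusted p = 0.00134). *Gulo*, the last enzyme of vitamin C synthesis, was higher in the RV of both sexes, by 3.43 in males and 1.24 in females (difference 2.17, SE 0.36, adjusted p = 0.0043), a call that was lost without the block (adjusted p = 0.138). Of 3328 genes called when females were taken alone, 3323 had the same sign in males, with median absolute log2 fold changes of 1.5 and 1.36. The selection was made in females, so that the larger median there is partly fixed by it.

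The AOB-F animals were in decompensated left heart failure by the study, with an LV loaded for the same labelled time. Against them, the chamber difference of Sham-F differed for 0 of 11549 genes (0%) at an adjusted p under 0.05 by edgeR's quasi-likelihood test. It differed for 1851 at an unadjusted p under 0.05, which a share of 0.05 passes by chance, and for 79 by DESeq2. Leaving out replicate 3 of Sham-F raised the edgeR count to 390, so that this animal decided the count. The count of 0 thus does not show an unchanged chamber difference. By the study, aortic banding changed genes in the LV and few in the RV. Between the Sham-F and AOB-F group means, the absolute log2 difference was above 1 for 2.05% of genes in the LV and 0.527% in the RV. Within AOB-F, 7720 of 11151 genes differed between the ventricles at an adjusted p under 0.05.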

How the data were processed

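Per the labels, cardiomyocyte total RNA of both ventricles was depleted of ribosomal RNA and sequenced, and Trim Galore, STAR, featureCounts and DESeq2 1.28.1 were named as tools. The authors deposited raw counts per gene (build Rnor6.0), which were used for all tests, their own normalized read signal, which was not used, and FPKM values, which served only to derive gene lengths.

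Genes were filtered and libraries scaled by TMM in edgeR 4.0.16 (R 4.3.3), and RV and LV were compared by the quasi-likelihood test with the animal as a block and Benjamini-Hochberg adjustment. Differences of the chamber difference by stage, sex and banding were interaction terms of the same test. Normalised counts refer to an effective library of 12869025. The shared animal number pairs both ventricles of 1 heart, and within-group deviations of same-numbered libraries correlated at 0.059 to 0.429 (median 0.223, different animals -0.0389). Members and gene lists were chosen with earlier results of these data known. Named genes were the 15 highest and 15 lowest called genes with 1 direction in all 9 animals, leaving out LOC and RGD symbols, up to 4 genes per list by absolute fold change, fixed cardiac genes, and the 5 highest and 5 lowest genes of each difference test. Further genes, given for detail within lists, were chosen after their values were seen, as were the promoter motifs and the sex comparison of *Nppa* and *Nppb*. Replicates are separate animals. Promoter and microRNA sequences were taken from RefSeq (GRCr8). Scripts were tested on simulated data. Alternatives were no block, other scalings and filters, DESeq2 1.42.0, corrections for gene length and promoter GC, single sexes and leaving out each animal. Some genes that this rule names are not reported here.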

Additional observations from a re-analysis of the deposited data

Results flagged for a closer look

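Of 126 groups of 9 libraries examined, 9 held a library far from the others, beside the 1 in 20 that chance gives (5%). In the LV these were *Mef2a* in replicate 3 (1311 normalised counts), *Penk* in replicate 8 (3472), *Trdn* in replicate 4 (1262), *Col1a1* in replicate 7 (5636) and *Hspa1b* in replicate 9 (1936, with the next library at 502.7). In the RV they were *Kcna4* in replicate 4 (430.5), *Akap6* (17230) and *Pdha1* (14660) in replicate 5, and *Mir207* in replicate 3 (85.99).

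The chamber difference differed between the older and younger sham animals for 5775 genes. Named genes above 0 on the log2 scale were *Scrn3* (1.89), *Mir1896* (1.89), *Mrpl42* (1.81), *Ddx3* (1.79), *Egfl6* (1.78), *Angpt1* (1.05), *Acadm* (1.05), *Chrm2* (1.04), *Gja1* (0.98), *Pln* (0.90) and *Atp2a2* (0.72). Those below 0 were *Hist2h2ab* (-2.74), *Lrfn3* (-2.50), *Kazald1* (-2.34), *Ssc5d* (-2.25), *Cnr2* (-2.18), *Col1a1* (-1.92), *Bst2* (-1.81), *Kcna5* (-1.75), *Nppa* (-1.43), *Klf2* (-1.35) and *Tbx2* (-1.24). *Ddx3* lost its call without the replicate block.

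The chamber difference differed between males and females for 53 genes. Above 0 were *Dnajb13* (2.38), *Gulo* (2.17), *Atcay* (2.12), *Cmtm5* (2.06) and *Gareml* (2.01), and below 0 *Hnrnph2* (-1.08), *Ctgf* (-0.99), *Tab2* (-0.97) and *Pabpc1* (-0.97). Without the replicate block the calls of *Dnajb13* (adjusted p = 0.166), *Gulo* (0.138), *Ctgf* (0.109), *Cmtm5* (0.0876) and *Hnrnph2* (0.0686) were lost. *Dnajb13* was also lost without replicate 1, 3, 5, 6, 7 or 8, *Hnrnph2* without replicate 3, 6, 8 or 9 and *Ctgf* without replicate 5 or 9.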

How the results depend on the processing

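The number of genes called between RV and LV, 3320, stayed between 3120 and 3746 under the alternatives run on all genes that passed their filter, was 2565 with the correction for promoter GC, which could be made for 8922 genes, and lay between 3239 and 3416 when each animal was left out. With total count scaling 3312 genes were called (1605 higher, 1707 lower), and with the correction for gene length 3173 (1680 higher, 1493 lower), of which 2972 were shared with the 3320. The stage count of 5775 stayed between 5275 and 6077 when each animal was left out. The replicate block changed neither of these counts by over 1.5 times (3294 and 5380 without it). The 53 genes that differed by sex became 22 without the replicate block, 251 without a filter on low counts, 189 with DESeq2 and 83 with the correction for gene length, and 21 to 151 when each animal was left out. The 0 genes that differed by banding became 1 without the replicate block, 3 without the filter and 79 with DESeq2, and 0 to 390 when each animal was left out. Single genes changed direction in 8 cases. *Myh7* was at -0.0152 with upper quartile scaling, -0.0399 with total counts, -0.2238 with the length correction and -0.0286 in males. *Kcnip2* was at -0.0300 with the length correction and -0.0181 in females, where *Actc1* was at 0.0435 and *Tceal7* at 0.1245. Of the other single-gene values, 4311 kept their direction and side of the threshold, 54 lost and 6 gained the threshold. The causes were not tested. Counts of genes with few reads limit the fold changes of those genes.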
